A study of Mus musculus with 6 samples.

Results

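The odorant receptor (OR) genes on mouse chromosome 19 whose whole names run from Olfr1417 to Olfr1505 are described here. They were taken by name alone, with names that mark pseudogenes left out, and no expression value entered the choice. The files held 60 such genes, all of them intact ORs, out of 1086 intact ORs and 24661 genes. RNA-Seq was done at postnatal day 21 on the olfactory mucosa of C57BL/6 mice, of which 3 were wild-type and 3 RTP1,2DKO. RTP1,2DKO mice carry deletions of both Rtp1 and Rtp2 (-/-), and the comparison asks which ORs are represented less or more often without these proteins. The methods describe sex-matched littermates and whole dissected mucosa, which holds supporting, basal, glandular, glial and blood cells beside the neurons.

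Each mature olfactory sensory neuron (OSN) transcribes a single OR gene, from 1 allele, out of a very large family. The OR protein is a membrane receptor that odorants activate in the cilia, and it also guides the axon of the neuron to its glomerulus. In bulk tissue the RNA of an OR therefore follows both the number of neurons that chose it and the RNA each of them holds, and fewer cells and less RNA per cell cannot be told apart here. RTP1 and RTP2 are receptor transporting proteins that help ORs reach the cell surface.

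The 60 genes lay in 2.10 Mb of chromosome 19, from 11826803 to 13921866 in GRCm38, the assembly that the submitters name as mm10. GENCODE M21 lists all 60 as protein coding, 33 on the plus and 27 on the minus strand, with Olfr1433 under its newer name. Their coding sequences were 921 to 1077 bases long, with a median of 942. The largest gap between consecutive members was 247 kb, between Olfr1441 and Olfr1442, so the genes form a single group by a limit of 500 kb. The coding sequence of a member was 62.5% to 97.5% identical to that of its closest relative in the cluster, with a median of 88.2%. For 23 members the closest relative was the neighboring member.

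The deleted genes checked the labels. Rtp1 had 13543 to 25301 all-gene-scaled counts in the wild-type mice and 85.5 to 109 in the RTP1,2DKO mice, where an all-gene-scaled count is the count divided by the all-gene size factor of that mouse. Rtp1 had a log2 fold change of -7.70 ± 0.26 (SE, n = 3 mice per group), with an adjusted p=7.19e-09 in edgeR's quasi-likelihood test. Rtp2 fell likewise, with a log2 fold change of -7.55 ± 0.26 (SE). Library totals ranged from 31125410 to 41636996 estimated counts.

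Markers of mature OSNs fell and some of immature OSNs rose, on the same all-gene scale. All 5 mature markers (Omp, Cnga2, Adcy3, Gnal and Stoml3) were lower, and their summed level went from between 148991 and 173014 in the wild-type mice down to between 75406 and 82124 in RTP1,2DKO. Of the 5 immature OSN markers, Gap43 (a growth-cone protein) and Gng8 (a G protein subunit) were higher, and the sum of the 5 went from between 16311 and 20265 up to between 24050 and 26078. Of the 14 genes listed for odorant transduction and receptor transport, 12 passed the threshold and all 12 were lower. These 12 include the deleted Rtp1 and Rtp2 and the same 5 mature markers. The others were Cnga4, Cngb1, Ano2, Ric8b and Reep1. The 2 listed genes that did not pass were Gng13 and Gnb1, with log2 fold changes of -0.76 ± 0.22 and -0.46 ± 0.13 (SE) and adjusted p=0.0857 and 0.0775 (edgeR's quasi-likelihood test). Among markers of other cells 1 of 4 blood genes was higher, Hbb-bt (a beta globin), and the blood sum was 56750 to 92331 in the wild-type and 90383 to 165573 in RTP1,2DKO. None of the 4 progenitor, 3 horizontal basal, 5 sustentacular, 3 respiratory ciliated, 3 Bowman's gland, 3 microvillar or ionocyte, 3 glial and 3 macrophage genes passed the threshold, and no marker was at 0. With the replicate number as a block Gng13 and Gnb1 were called lower and the immature OSN markers Stmn1 and Dpysl3 higher, while the call of Hbb-bt was lost. The part of these cells in the values of the chromosome 19 ORs was not tested.

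The cluster held a smaller share of the OR transcripts in RTP1,2DKO. Members together took 2.99%, 3.16% and 2.91% of the counts on intact ORs in the wild-type, against 2.03%, 2.10% and 1.76% in RTP1,2DKO, with mice listed in the order 1 to 3 throughout. The means were 3.02% ± 0.13 and 1.96% ± 0.18 (SD, n = 3 each), and the groups did not overlap. By number, the cluster makes up 5.52% of intact ORs. A loss of share was common among ORs and is not particular to this cluster. The mean share of the cluster in RTP1,2DKO was 0.65 of that in the wild-type. With each mouse scaled to its summed OR count, the median log2 fold change was -0.90 over all intact ORs and -1.09 over the members. Olfr907, an OR on another chromosome, took 19.3% to 23.2% of the OR counts of a wild-type mouse and 23.4% to 33.4% of those of an RTP1,2DKO mouse. Without it the share of the cluster was 3.85% ± 0.19 and 2.73% ± 0.15 (SD), still without overlap. Leaving the 3 most abundant ORs out of the total gave 4.06% to 4.38% in the wild-type and 2.91% to 3.2% in RTP1,2DKO. Of all counts in a library, the cluster took 0.0240% to 0.0355% in the wild-type and 0.0143% to 0.0187% in RTP1,2DKO.

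**Figure D1:**
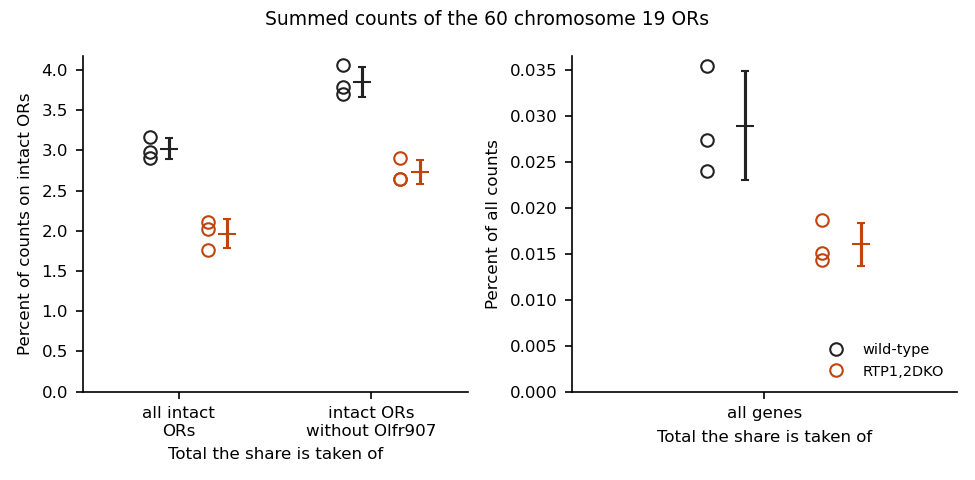
Summed counts of the 60 chromosome 19 ORs as a percent of the counts on intact ORs, with and without Olfr907 (left axis), and of all counts (right axis). Circles are mice, and crosses with bars are means ± SD (n = 3 mice per group). In each case all 3 RTP1,2DKO mice lay below all 3 wild-type mice.

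The genes that carried the total differed between the groups. In the wild-type, Olfr1440, Olfr1437 and Olfr1459 led, with 22.1% of the counts of the cluster between them on average. In RTP1,2DKO, Olfr1448, Olfr1459 and Olfr1440 led, with 28.6%. Olfr1448 went from a mean of 3.67% of the cluster to 11.4%, while Olfr1437 went from 6.70% to 3.15%.

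Both an all-gene and an OR fit were made. In the all-gene fit the size factors came from all 22152 genes with a count in some mouse, so a fold change is relative to the typical gene of the mucosa. In the OR fit the table was reduced to the 1078 intact ORs with a count, so a fold change is relative to the typical OR. Underrepresented and overrepresented ORs are those past an adjusted p of 0.05 in the OR fit, and the OR-scaled count is the count divided by the size factor of that fit.

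In the all-gene fit, 23 of the 60 members were lower in RTP1,2DKO and 1 was higher. Among all genes tested 3.15% were lower and 0.46% higher, and among intact ORs 38.3% were lower and 4.36% higher. The 23 members make up the same 38.3%, so the cluster was called lower at the rate of ORs in general. The median log2 fold change was -1.28 over the members, -1.07 over the other intact ORs and 0.02 over all genes. The fold change was negative for 49 members and positive for 11. The single gene called higher was Olfr1448.

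By the size factors of the OR fit, which are relative to the typical OR, the cluster was divided almost evenly. In the OR fit 18 members (30%) were underrepresented and 16 (26.7%) overrepresented, beside 25.9% and 29.1% of all intact ORs tested. The other 26 members did not pass the threshold. All 18 underrepresented members were also lower in the all-gene fit. Both fits use the same counts, and the OR size factors put each member's fold change above its all-gene value. Agreement between the fits is therefore not independent support, here or for single genes below. Of the 16 overrepresented members 15 were not past the threshold in the all-gene fit, where the exception was Olfr1448. When the summed OR count of a mouse was used as its size factor instead, 29 members were underrepresented and 5 overrepresented, and the median of all intact ORs moved from -0.12 to -0.90. Over all intact ORs that scaling called 516 underrepresented and 177 overrepresented, against 279 and 314 in the OR fit. The study also normalized by intact ORs and reported more underrepresented than overrepresented ORs. Scaling to the summed OR count also gave more underrepresented ORs, and the OR fit did not. The near-even split of the cluster thus depends on the scaling, and the reason for the difference from the study was not tested. The calls of the OR fit here are therefore not the classes of the study. The OR-scaled counts of all RTP1,2DKO mice were below those of all wild-type mice for 18 members (29.3% of intact ORs) and above them for 16 (30.9% of intact ORs).

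**Figure D2:**
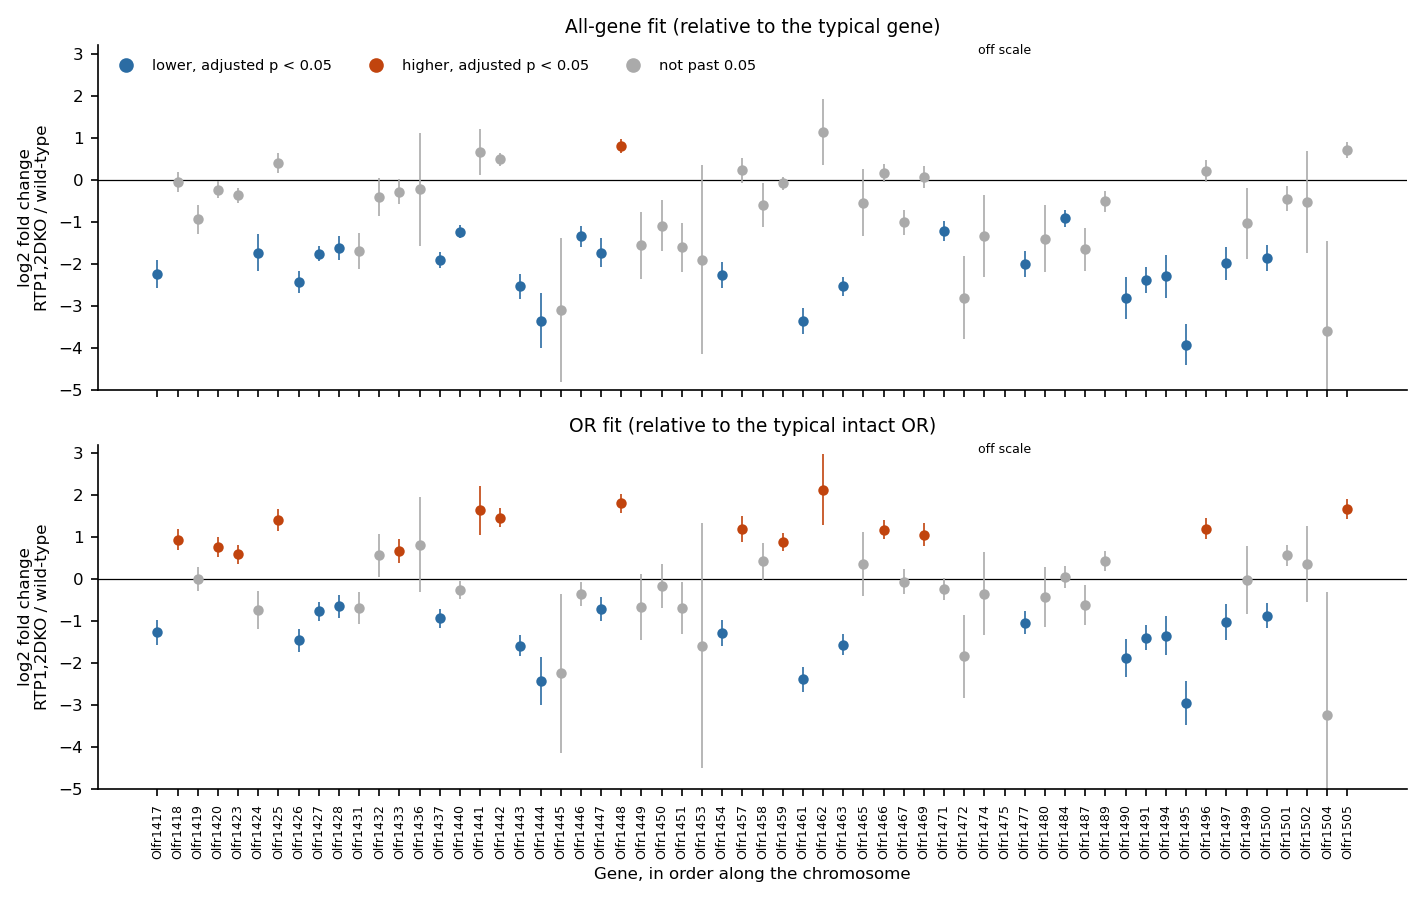
Log2 fold change of each chromosome 19 OR (points) with its SE (bars) in the all-gene fit (top) and the OR fit (bottom), in order along the chromosome. Blue and red points passed an adjusted p of 0.05 as lower and higher. Olfr1475, with no count in any wild-type mouse, is off scale, and both directions occur throughout the OR fit.

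Neither direction was held to a stretch or a strand of the cluster. In chromosome order, the 34 members called in the OR fit form 33 consecutive pairs, of which 16 went the same way. From Olfr1417 to Olfr1441, 5 of 17 members were underrepresented and 6 overrepresented. From Olfr1442 to Olfr1474 the numbers were 6 and 7 of 25, and from Olfr1475 to Olfr1505 they were 7 and 3 of 18. On the plus strand 10 of 33 members were underrepresented and 9 overrepresented, and on the minus strand 8 and 7 of 27. These counts are descriptions, and the difference between the stretches was not tested.

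Olfr1495 had the largest decrease in the OR fit among members with at least 10 counts per mouse on average. It had 52.4, 49.2 and 52.7 OR-scaled counts in the wild-type, against 5.16, 11.4 and 2.83 in RTP1,2DKO. The wild-type mice lay close together, and all RTP1,2DKO mice were far below them. The log2 fold change of Olfr1495 was -2.95 ± 0.53 (SE), with an adjusted p=5.42e-06 in edgeR's quasi-likelihood test. It was -3.61 without RTP1,2DKO mouse 2. In the all-gene fit Olfr1495 also had the largest decrease of the cluster, at -3.92 ± 0.49 (SE), and -4.54 without RTP1,2DKO mouse 2. Of its 31-base words 98.7% occur in no other gene of GENCODE M21. Sharing of reads within the extended OR models that kallisto used was not measured.

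Olfr1444, an OR that the study also followed by name in tissue sections, had 35.7, 49.2 and 43.2 OR-scaled counts in the wild-type and 16.8, 1.27 and 5.67 in RTP1,2DKO. The RTP1,2DKO mice differed from each other by more than the wild-type mice did, with mouse 2 the lowest. The log2 fold change of Olfr1444 was -2.41 ± 0.57 (SE, edgeR's quasi-likelihood test, adjusted p=0.000303). With single mice left out it ranged from -3.61 to -1.88, and the call held each time. The lowest value, and -4.66 in place of -3.35 in the all-gene fit, came without RTP1,2DKO mouse 1.

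Olfr1461 and Olfr1463, whose coding sequences lie among the closest relatives of the overrepresented Olfr1466, were both underrepresented. Olfr1461 had 165, 174 and 124 OR-scaled counts in the wild-type and 32.3, 22.8 and 34.0 in RTP1,2DKO, which gave a log2 fold change of -2.38 ± 0.30 (SE, edgeR's quasi-likelihood test, adjusted p=6.97e-09). Olfr1463 had 254, 348 and 308 against 115, 90.1 and 105, a log2 fold change of -1.56 ± 0.24 (SE). Every wild-type mouse was above every RTP1,2DKO mouse for both genes. Per length, Olfr1463 was the most abundant member in the wild-type, at 17.5 ± 5.96 FPKM (SD, n = 3), and had 2.31 ± 0.14 FPKM in RTP1,2DKO.

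The other large decreases were those of Olfr1490, Olfr1443, Olfr1426 and Olfr1491. Olfr1490 had 51.7, 65.8 and 51.8 OR-scaled counts in the wild-type and 27.1, 7.61 and 11.3 in RTP1,2DKO. Olfr1443 had 456, 349 and 452 against 155, 71.1 and 195. Olfr1426 had 127, 152 and 138 against 55.5, 48.2 and 48.2. For these genes the groups were far apart, and the RTP1,2DKO mice were most alike in Olfr1426. Olfr1491 had 85.9, 125 and 142 against 38.7, 60.9 and 34.0. The log2 fold changes in the OR fit were -1.87 ± 0.45, -1.58 ± 0.26, -1.46 ± 0.28 and -1.39 ± 0.30 (SE) in that order, and all 4 genes were also lower in the all-gene fit. Without RTP1,2DKO mouse 1, Olfr1490 was at -2.57 in the OR fit and at -3.63, in place of -2.82, in the all-gene fit.

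Olfr1448 had the largest increase in the OR fit among members with at least 10 counts per mouse on average. Its OR-scaled counts were 221, 276 and 270 in the wild-type and 719, 1029 and 922 in RTP1,2DKO. The lowest RTP1,2DKO mouse had more than the highest wild-type mouse by a wide margin, and the log2 fold change was 1.80 ± 0.22 (SE, edgeR's quasi-likelihood test, adjusted p=4.63e-09). On the all-gene scale Olfr1448 had 313, 444 and 344 counts in the wild-type and 587, 707 and 638 in RTP1,2DKO. There the log2 fold change was 0.81 ± 0.16 (SE), with an adjusted p=0.0126, and it was 0.74 with an adjusted p=0.061 without RTP1,2DKO mouse 2. Olfr1448 shares 92.5% of its coding sequence with Olfr1445, which had at most 6 counts in any mouse.

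Olfr1505, the last member along the chromosome, had 92.4, 84.2 and 124 OR-scaled counts in the wild-type and 293, 320 and 347 in RTP1,2DKO. The groups were well separated, and the log2 fold change was 1.68 ± 0.24 (SE, edgeR's quasi-likelihood test, adjusted p=7.16e-08). In the all-gene fit it was 0.72 ± 0.19 (SE) with an adjusted p=0.0598, and DESeq2's Wald test gave an adjusted p=0.0262. The coding sequence of Olfr1505 is 97.5% identical to that of Olfr1502, the closest pair of the cluster, and Olfr1502 had 39.4% of its words to itself, the least of all members, and 10.2 counts per mouse on average.

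Olfr1442 had 173, 151 and 205 OR-scaled counts in the wild-type and 393, 519 and 540 in RTP1,2DKO, which gave a log2 fold change of 1.46 ± 0.23 (SE). Olfr1425 had 68.4, 80 and 83.8 against 168, 263 and 183, at 1.40 ± 0.26 (SE). Olfr1496, the member least like any other in sequence, had 76.4, 118 and 83.8 against 218, 208 and 217, at 1.20 ± 0.25 (SE). All 3 genes were overrepresented with no overlap between the groups. Olfr1466 had 152, 231 and 174 against 379, 469 and 408, at 1.17 ± 0.23 (SE). Olfr1457 had 50.2, 30.8 and 44.9 against 87.7, 112 and 87.8, at 1.19 ± 0.31 (SE). None of these 5 genes passed the threshold in the all-gene fit, where their log2 fold changes were 0.18 to 0.49.

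Olfr1441 had the fewest counts of the named increases. It had 12.4, 6.52 and 11.2 OR-scaled counts in the wild-type against 23.2, 25.4 and 45.3 in RTP1,2DKO. Its log2 fold change of 1.64 ± 0.58 (SE) had an adjusted p=0.0151 in edgeR's quasi-likelihood test. The call was lost without wild-type mouse 2 (adjusted p=0.0608) and without RTP1,2DKO mouse 3 (adjusted p=0.106). Scaling to the total OR count lost it too, and with it the calls of Olfr1418, Olfr1433, Olfr1457, Olfr1466 and Olfr1496.

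**Figure D3:**
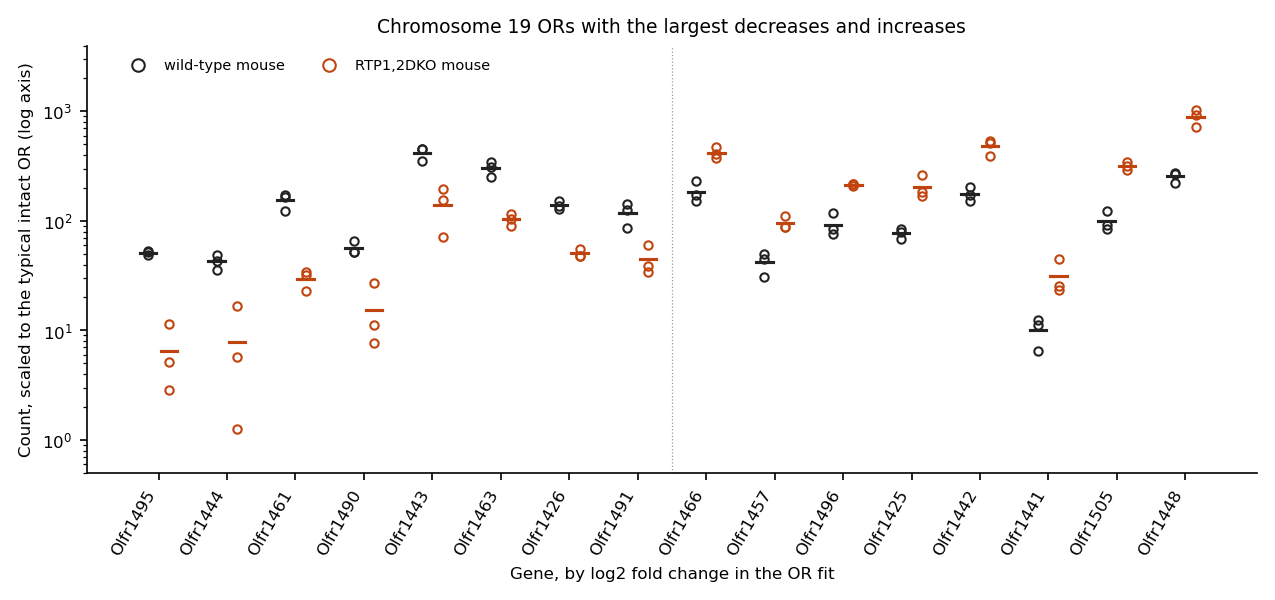
OR-scaled counts (log axis) of the 8 underrepresented and 8 overrepresented chromosome 19 ORs with the largest change, no overlap between the groups and at least 10 counts per mouse on average. Circles are mice and lines are means (n = 3 mice per group). Left of the dotted line all RTP1,2DKO mice are below all wild-type mice, and right of it all are above.

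Olfr1497, an OR that the study also tested in transfected cells, had 50.2, 48.0 and 44.1 OR-scaled counts in the wild-type and 29.7, 17.8 and 22.7 in RTP1,2DKO. The groups did not overlap, and the log2 fold change was -1.02 ± 0.42 (SE, edgeR's quasi-likelihood test, adjusted p=0.0353). The call was lost when any mouse but RTP1,2DKO mouse 1 was left out, with adjusted p=0.111 and 0.0698 without RTP1,2DKO mice 2 and 3, and 0.113, 0.0739 and 0.0639 without wild-type mice 1, 2 and 3 (edgeR). In the all-gene fit Olfr1497 was lower at -1.98 ± 0.39 (SE), and that call held with each mouse left out.

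Olfr1417, Olfr1427, Olfr1428 and Olfr1437 were also underrepresented and are described below. The other underrepresented members were Olfr1454, Olfr1494, Olfr1477, Olfr1500 and Olfr1447, with OR-fit log2 fold changes of -1.28 ± 0.32, -1.35 ± 0.46, -1.03 ± 0.27, -0.87 ± 0.30 and -0.71 ± 0.28 (SE). Their groups did not overlap except in Olfr1447, and all 5 were lower in the all-gene fit. In the OR fit the Olfr1494 call was lost without RTP1,2DKO mouse 3 or wild-type mouse 3 (adjusted p=0.089 and 0.0515, edgeR), that of Olfr1500 without RTP1,2DKO mouse 1 or 3 or wild-type mouse 2 (0.0533, 0.0552 and 0.0825), and that of Olfr1447 without the same 3 mice (0.0742, 0.158 and 0.276). Without wild-type mouse 2 the all-gene calls of Olfr1447 and Olfr1494 were lost as well (adjusted p=0.053 and 0.0823, edgeR). Apart from Olfr1418 and Olfr1433, described below, the remaining overrepresented members with at least 10 counts were Olfr1469, Olfr1459, Olfr1420 and Olfr1423. They were at 1.06 ± 0.28, 0.88 ± 0.21, 0.76 ± 0.24 and 0.60 ± 0.23 (SE), without overlap. The Olfr1423 call was lost without RTP1,2DKO mouse 3 or wild-type mouse 1 or 2 (adjusted p=0.058, 0.0836 and 0.0973, edgeR). On the all-gene scale these 4 genes lay near 0, from -0.36 to 0.08, and none was called. Olfr1424, Olfr1440, Olfr1446, Olfr1471 and Olfr1484 were lower in the all-gene fit only, at -1.73 to -0.91 there. The Olfr1424 call (adjusted p=0.049, edgeR) was lost with the replicate block (adjusted p=0.0611) and without any mouse but RTP1,2DKO mouse 2, with adjusted p=0.0612 to 0.2. The Olfr1484 call (adjusted p=0.0269, edgeR) was lost without any mouse but wild-type mouse 2, with adjusted p=0.0573 to 0.117.

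Neither fit called the other 21 members without the replicate block. Of these, 15 had at least 10 counts per mouse on average: Olfr1419, Olfr1431, Olfr1432, Olfr1449, Olfr1450, Olfr1451, Olfr1458, Olfr1465, Olfr1467, Olfr1480, Olfr1487, Olfr1489, Olfr1499, Olfr1501 and Olfr1502. Their log2 fold changes in the OR fit ran from -0.69 in Olfr1451 to 0.57 in Olfr1501, with SEs of 0.24 to 0.91. Olfr1501 came nearest to a call in the OR fit, with an adjusted p=0.0511 in edgeR's quasi-likelihood test. Pairing the mice by number, Olfr1501 and Olfr1489 were called overrepresented (adjusted p=0.02 and 0.0498, edgeR) and Olfr1431 lower in the all-gene fit (adjusted p=0.00944). Leaving out single mice also gave calls in the OR fit to Olfr1501 (without RTP1,2DKO mouse 1 or 3 or wild-type mouse 2, at 0.67, 0.75 and 0.85), Olfr1489 (without RTP1,2DKO mouse 2 or wild-type mouse 1, at 0.63 and 0.64) and Olfr1431 (without RTP1,2DKO mouse 2, at -1.10). For the all-gene fit this was so for Olfr1431 (without RTP1,2DKO mouse 2 or wild-type mouse 3, at -2.05 and -1.93) and Olfr1487 (without wild-type mouse 3, at -1.98). Olfr1419 was closest to the typical OR, at 0.00 ± 0.29 (SE), and Olfr1489 was the one with the most counts, 310 per mouse on average.

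Levels of members can be compared with each other only per length, as FPKM. The median member had 2.63 FPKM in the wild-type and 0.98 in RTP1,2DKO, beside 2.71 and 1.14 for the median of the other intact ORs. In the wild-type 12 members were above 5 FPKM and 11 were under 1, and in RTP1,2DKO 5 were above 5 and 31 under 1. After Olfr1463, the most abundant in the wild-type were Olfr1427 (14.4 ± 4.57 FPKM, SD, n = 3), Olfr1440 (8.40 ± 2.00), Olfr1461 (8.34 ± 2.56), Olfr1428 (7.55 ± 2.60) and Olfr1442 (6.90 ± 0.73). Except for the step from Olfr1427 to Olfr1440, neighbors in this order differed by less than the larger of their SDs.

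The 6 most abundant members did not share a direction. Olfr1427 had 13.0, 19.5 and 10.7 FPKM in the wild-type and 3.49, 3.04 and 4.08 in RTP1,2DKO, and was underrepresented at -0.76 ± 0.22 (SE). Olfr1428 went from 7.55 to 2.46 ± 1.18 FPKM, which is relative to the whole library. Its OR-scaled counts overlapped, with 99.0, 161.8 and 155.5 in the wild-type and 91.6, 73.6 and 102 in RTP1,2DKO. The OR-fit log2 fold change of Olfr1428 was -0.64 ± 0.27 (SE), with an adjusted p=0.0403 in edgeR's quasi-likelihood test. That call did not hold without RTP1,2DKO mouse 1 or 2 (adjusted p=0.0783 and 0.154) or wild-type mouse 2 or 3 (adjusted p=0.154 and 0.129). Olfr1440 had 638, 619 and 620 OR-scaled counts in the wild-type and 553, 532 and 479 in RTP1,2DKO, and was not past the threshold at -0.26 ± 0.21 (SE, adjusted p=0.296). On the all-gene scale Olfr1440 was lower at -1.23 ± 0.16 (SE). Olfr1442 was the only one of the 6 with a higher mean FPKM in RTP1,2DKO, at 10.01 ± 0.82, the highest of any member there.

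Some receptors with similar coding sequences were called in opposite directions in the OR fit. Among 1770 pairs of members, 63 had coding sequences at least 80% identical, and in 18 of these both genes were called in the OR fit, with opposite directions in 10 (55.6%) and the same direction in 8. Some genes occur in several of these pairs. In the all-gene fit, where only Olfr1448 was called higher, none of the 10 pairs had opposite calls. Scaling to the total OR count lost the calls of Olfr1418, Olfr1433 and Olfr1466, and with them the opposite calls of their pairs. Over all 561 pairs of called members, 288 (51.3%) were opposite in the OR fit, and the shares were not tested against each other. The pairs described next were chosen because their calls were opposite, so the difference within a pair is a description. The most similar is Olfr1417 with Olfr1418, which lie 13.4 kb apart on the minus strand with 96.3% identity. Olfr1417 had 140, 118 and 175 OR-scaled counts in the wild-type and 45.2, 97.7 and 35.4 in RTP1,2DKO, at -1.27 ± 0.30 (SE). Olfr1418 had 111, 114 and 95.9 against 201, 169 and 248, at 0.94 ± 0.25 (SE). Olfr1418 was not called in the all-gene fit, at -0.04 ± 0.24 (SE). Of the 31-base words of Olfr1417 80.3% occur in no other annotated gene, and of those of Olfr1418 82.4%. Among stretches of 120 bases aligned without a gap, the one in which their coding sequences differ most is shown from GENCODE M21. It is written 5′ to 3′ from base 730 to 849 of the coding sequence, with the 6 differing bases in capitals.
Olfr1417: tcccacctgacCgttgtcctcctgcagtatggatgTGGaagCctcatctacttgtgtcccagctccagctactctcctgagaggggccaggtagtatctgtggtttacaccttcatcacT
Olfr1418: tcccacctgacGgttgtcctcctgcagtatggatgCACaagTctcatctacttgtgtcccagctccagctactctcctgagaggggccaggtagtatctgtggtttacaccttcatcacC

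Olfr1425 and Olfr1426, next to each other 9.02 kb apart, have coding sequences 95% identical. The OR-scaled counts of both are given above. The log2 ratio of the estimated count of Olfr1425 to that of Olfr1426, with 1 added to each, was -0.89, -0.92 and -0.72 in the wild-type, against 1.57, 2.41 and 1.91 in RTP1,2DKO. The ratio was higher in every RTP1,2DKO mouse than in every wild-type mouse. Per length, Olfr1425 had 5.40 ± 1.82 FPKM (SD, n = 3) in the wild-type and 5.72 ± 0.46 in RTP1,2DKO, and Olfr1426 had 2.67 ± 0.42 and 0.50 ± 0.20, so by FPKM Olfr1425 was the more abundant in both groups. Olfr1425 had 50.5% of its words to itself and shares the most with Olfr1424, which had 37.1 counts per mouse on average. From base 538 to 657 the coding sequences differ at 16 places, in capitals, after a long stretch without a difference.
Olfr1425: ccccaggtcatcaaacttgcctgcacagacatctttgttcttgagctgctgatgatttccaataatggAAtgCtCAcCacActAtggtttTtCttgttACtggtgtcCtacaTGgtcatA
Olfr1426: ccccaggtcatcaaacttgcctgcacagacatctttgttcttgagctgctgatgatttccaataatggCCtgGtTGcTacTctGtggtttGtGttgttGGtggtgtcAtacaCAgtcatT

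Olfr1433 and Olfr1437 lie 33.6 kb apart with Olfr1436 between them and are 89.6% identical. Olfr1437 had 397, 496 and 504 OR-scaled counts in the wild-type and 250, 225 and 256 in RTP1,2DKO, at -0.93 ± 0.22 (SE). Olfr1433 had 54.6, 72.9 and 111 against 133, 145 and 102, and its groups overlapped. The log2 fold change of Olfr1433 was 0.68 ± 0.28 (SE), with an adjusted p=0.036 in edgeR's quasi-likelihood test. The Olfr1433 call was lost without RTP1,2DKO mouse 1 or 2 (adjusted p=0.0788 and 0.0848) and without wild-type mouse 1 or 2 (adjusted p=0.191 and 0.082), and scaling to the total OR count turned the value to -0.08. Olfr1433 was not called in the all-gene fit, at -0.27 ± 0.29 (SE). From base 401 to 520 of the coding sequence the pair differs at 13 places, again in capitals.
Olfr1433: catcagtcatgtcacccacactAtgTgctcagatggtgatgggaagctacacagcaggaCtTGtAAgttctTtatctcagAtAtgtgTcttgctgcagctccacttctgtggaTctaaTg
Olfr1437: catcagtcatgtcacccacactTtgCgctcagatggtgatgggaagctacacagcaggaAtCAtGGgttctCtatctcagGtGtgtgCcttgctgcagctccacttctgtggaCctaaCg

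Olfr1442 and Olfr1443, neighbors on the plus strand only 0.84 kb apart, were added to these pairs after their values were seen. They are each other's closest relatives, at 86.3% identity, with 94.1% and 92.5% of their words to themselves. Per length, Olfr1442 had 7.68, 6.80 and 6.23 FPKM in the wild-type and 10.8, 9.17 and 10.1 in RTP1,2DKO. Olfr1443 had 6.91, 6.81 and 5.78 FPKM against 1.59, 0.53 and 1.46, below Olfr1442 in every RTP1,2DKO mouse.

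**Figure D4:**
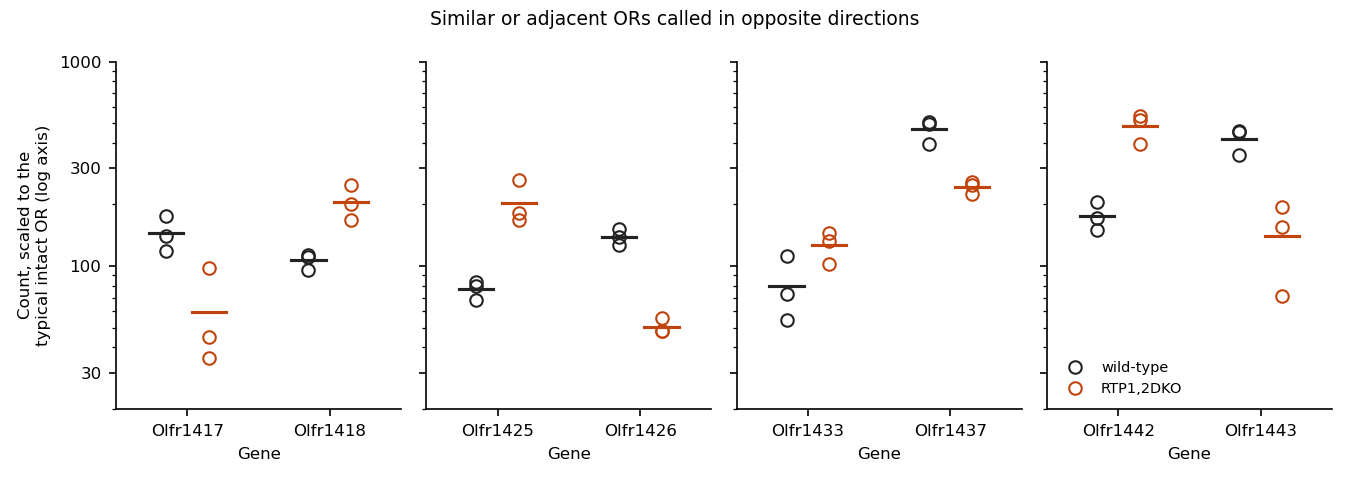
OR-scaled counts (log axis) of 3 pairs of similar chromosome 19 ORs and of the adjacent Olfr1442 and Olfr1443, with 1 gene of each pair underrepresented and the other overrepresented. Circles are mice and lines are means (n = 3 mice per group). Within each pair the mean of 1 gene is lower and that of the other higher in RTP1,2DKO, and counts are to be compared between groups and not between genes.

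The start windows of the RefSeq table (GRCm38.p6) covered 56 members. For 51 of them the listed start lay within 100 bases of the start codon or after it, so those windows were not read as promoters. The 5 members with a start further upstream were Olfr1426, Olfr1433, Olfr1437, Olfr1443 and Olfr1477. The 250 bases before the start were searched on both strands for CCCNNGGG, a core bound by Ebf (O/E) factors, and for TAATTA, a homeodomain core. These motifs read the same on either strand and do not overlap each other. CCCNNGGG was found in 1 of the 5 windows (20%) and in 15.7% of 89 such windows of other intact ORs. Of all 32851 RefSeq start windows, which were not limited by distance to the start codon, 11.8% held it. TAATTA was found in 1 of the 5 windows, in 19.1% of the other OR windows and in 4.84% of all RefSeq start windows. The windows of the pair with opposite calls, Olfr1433 and Olfr1437, and of the decreased Olfr1443 and Olfr1426 are shown 5′ to 3′ on the strand of the gene, with matches in capitals. They end at the base before the RefSeq start and lie at chr19:12279604-12279853 (plus), chr19:12325067-12325316 (minus), chr19:12677916-12678165 (plus) and chr19:12091848-12092097 (minus). GENCODE M21 starts Olfr1437, Olfr1443 and Olfr1426 further upstream, at 12325101, 12678112 and 12092013. Part of each of their windows therefore lies inside the gene as GENCODE lists it. A match is a run of letters and not a shown binding site.
Olfr1433 upstream: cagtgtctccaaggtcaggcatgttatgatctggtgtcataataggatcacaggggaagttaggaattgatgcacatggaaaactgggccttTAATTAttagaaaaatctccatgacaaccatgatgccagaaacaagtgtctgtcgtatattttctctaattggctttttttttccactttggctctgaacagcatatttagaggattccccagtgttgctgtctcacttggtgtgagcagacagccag
Olfr1437 upstream: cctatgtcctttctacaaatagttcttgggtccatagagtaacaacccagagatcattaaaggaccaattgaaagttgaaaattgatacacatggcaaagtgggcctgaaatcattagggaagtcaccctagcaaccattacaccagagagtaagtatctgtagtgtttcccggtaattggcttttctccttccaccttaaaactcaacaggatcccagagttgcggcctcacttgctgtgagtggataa
Olfr1443 upstream: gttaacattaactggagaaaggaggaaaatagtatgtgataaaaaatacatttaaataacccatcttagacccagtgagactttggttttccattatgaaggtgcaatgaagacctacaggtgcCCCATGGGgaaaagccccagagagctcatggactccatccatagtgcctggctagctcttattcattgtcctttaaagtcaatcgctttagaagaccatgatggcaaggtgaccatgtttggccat
Olfr1426 upstream: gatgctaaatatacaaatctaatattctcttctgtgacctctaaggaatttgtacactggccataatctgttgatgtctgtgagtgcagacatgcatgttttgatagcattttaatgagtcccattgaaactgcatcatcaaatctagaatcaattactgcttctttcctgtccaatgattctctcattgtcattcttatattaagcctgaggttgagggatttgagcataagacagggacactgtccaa

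Some members were close to undetected. All 60 had a count in some mouse, and 52 had at least 10 counts per mouse on average. The same 52 passed edgeR's filterByExpr. The other 8 were Olfr1436, Olfr1445, Olfr1453, Olfr1462, Olfr1472, Olfr1474, Olfr1475 and Olfr1504. Olfr1453 had 1 count in all 6 mice together and Olfr1504 had 4, so a difference could not be seen for them at this depth. Olfr1475 had no count in the wild-type and 10, 4 and 1 in RTP1,2DKO. A count of 0 allows up to 3 counts over the wild-type group. After division by the OR-fit size factors of each group, RTP1,2DKO was 9.30-fold above that limit, with its own counts taken as exact. Without RTP1,2DKO mouse 1, which held most of the RTP1,2DKO counts, the same ratio is 4.71-fold and the call is lost (adjusted p=0.0991, edgeR's quasi-likelihood test). Only 42.3% of the words of Olfr1475 occur in no other gene, and it is 96.9% identical to Olfr1472, which had 7, 30 and 12 counts in the wild-type and 4, 3 and 0 in RTP1,2DKO. Olfr1462, with 99.4% of its words to itself, had 2, 9 and 5 counts in the wild-type and 10, 16 and 12 in RTP1,2DKO. Olfr1475 and Olfr1462 were called overrepresented. The Olfr1462 call was lost without RTP1,2DKO mouse 2 or 3 or wild-type mouse 1 or 3 (adjusted p=0.0817, 0.0516, 0.104 and 0.0532, edgeR). Olfr1436, with 16 counts in wild-type mouse 2 and 0 in the other two, was not called, but was called overrepresented without that mouse (5.60, adjusted p=0.0357, edgeR). Intervals and limits from counts cover counting error only.

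Reads shared between relatives could bear on part of the cluster. The words were counted in GENCODE M21 transcripts and not in the extended OR models that reads were assigned to. The share of the 31-base words of a member found in no other gene was 39.4% to 100%, with a median of 93.7%, and it was under 80% for 18 members. Among the 26 members with at least 95%, 11 were underrepresented and 7 overrepresented in the OR fit, and 12 were lower and 0 higher in the all-gene fit. Olfr1495, Olfr1444, Olfr1461, Olfr1490, Olfr1491, Olfr1441, Olfr1466, Olfr1496 and Olfr1497 are among those 26.

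The split of counts over the transcripts of a gene is described without a test. The files list 185 transcripts for the 60 members, 1 to 9 per gene, and the shortest is often the coding sequence without its longer ends. For the 47 members with 2 or more transcripts and a shortest one under 1200 bases, that transcript took 15.1%, 13.3% and 14.0% of the summed counts in the wild-type, against 10.6%, 11% and 10.9% in RTP1,2DKO. The means were 14.1% ± 0.89 and 10.8% ± 0.21 (SD, n = 3 each), without overlap. For 829 other intact ORs the values were 9.18% ± 0.22 and 6.77% ± 0.78 (SD). Taken gene by gene, with at least 30 counts in each group, the share was lower in RTP1,2DKO for 27 of 41 members and higher for 12, with medians of 9.71% and 7.02%. For 768 other intact ORs it was lower for 398 and higher for 299, with medians of 12.8% and 11.3% and a median change per gene of -0.10 percentage points, beside -2.49 for the members. The pooled shares also follow which genes carry the counts, and that was not separated here. An exact permutation test cannot go below p=0.1 with 3 mice against 3, and none is given for these sums.

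**Figure D5:**
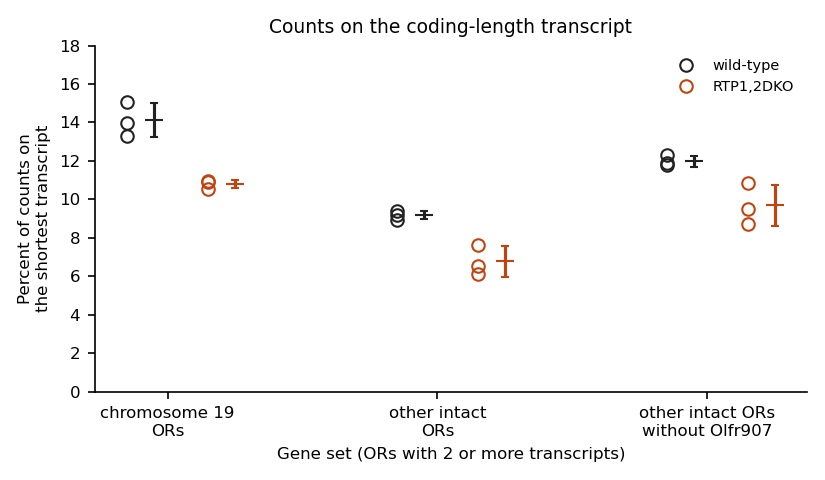
Percent of the counts of ORs with 2 or more transcripts that fell on the shortest transcript (under 1200 bases), for chromosome 19 ORs and for other intact ORs with and without Olfr907. Circles are mice, and crosses with bars are means ± SD (n = 3 mice per group). The RTP1,2DKO mice lie below the wild-type mice in each set.

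Counts and FPKM gave somewhat different fold changes. Short transcripts weigh more per count in FPKM, and the effective lengths were the same in all 6 files. Over the 52 members with at least 10 counts, the median log2 ratio of RTP1,2DKO to wild-type means was -1.22 for all-gene-scaled counts and -1.32 for FPKM. FPKM gave the lower ratio for 35 of the 52 members, by more than 0.5 for 9. The ratio of Olfr1469 was 0.08 by counts and -0.69 by FPKM, and that of Olfr1501 was -0.44 and -1.24. For Olfr1480 it went the other way, from -1.40 by counts to -0.87 by FPKM.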

How the data were processed

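RNA-Seq libraries came from 6 mice, 3 wild-type and 3 RTP1,2DKO. The authors assigned reads with kallisto to mouse transcripts whose OR models had been extended, and deposited an estimated count per transcript, with its length and effective length. The deposited TPM values, which sum to the same total in every mouse, were not tested. The kallisto version is not given in the sources used here. Groups came from the sample titles. The members, gene lists and tests were chosen with earlier results of these data known.

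Estimated counts were summed per gene and rounded. FPKM was computed from the unrounded counts, effective lengths and library total. Genes counted at least once (1 count) in any mouse were tested with edgeR 4.0.16 (glmQLFit, glmQLFTest) in R 4.3.3, using median-of-ratios size factors from DESeq2 1.42.0, as in the methods, and Benjamini-Hochberg adjustment at 0.05. An SE is the fold change divided by the root of F. The all-gene fit covered 22152 genes, and the OR fit 1078 intact ORs with their own size factors and adjustment. The fits were also run on simulated counts in which as many genes were raised as lowered, which cannot test the choice of size factors. The median member had 96.8 to 129 counts in a wild-type mouse and 32.0 to 48.1 in an RTP1,2DKO mouse.

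Same-numbered mice deviated together from their group means over 18156 genes (correlations of 0.149, 0.186 and 0.115). Mice with different numbers had correlations of -0.223 to 0.086. The numbers were therefore taken as pairs in a replicate block, which was run as an alternative. The main fits had no block. Other alternatives were TMM, filterByExpr, DESeq2's Wald test, each mouse left out, adjustment over intact ORs, scaling to the total OR count, all genes named Olfr, and totals without abundant ORs. The last, without the 3 most abundant, and the restriction to members with distinct sequence were chosen after seeing the data.

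Named members had a mean of at least 10 counts and were Olfr1444 and Olfr1497, the 8 largest decreases and 8 largest increases of the OR fit without overlap, those higher in the all-gene fit, the 6 with the highest FPKM in the wild-type, and 3 similar pairs with opposite calls. Protein identity was to choose the pairs, and identity of coding bases (edlib 1.3.9.post1 on GENCODE M21) was used instead. Members outside this rule were named after their values were seen. Python 3.11.15, numpy 2.4.6 and pandas 2.3.3 were used.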

Additional observations from a re-analysis of the deposited data

How the results depend on the processing

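The count of members lower in the all-gene fit stayed between 20 and 23 with each mouse left out and was within 1.5 times of 23 under all other settings applied to the 60 members, and the median log2 fold change there was -1.41 to -1.09 with each mouse left out. The count of members higher in the all-gene fit was 1, but 2 with DESeq2's Wald test, 4 with the adjustment over intact ORs, and 0 to 1 with each mouse left out, 0 being the value without RTP1,2DKO mouse 2. In the OR fit, leaving out each mouse gave 14 to 17 underrepresented and 14 to 15 overrepresented members and a median of -0.35 to -0.18. That median of -0.30 was -0.35 with TMM, -0.23 with filterByExpr, -0.25 with DESeq2 and -0.38 with the replicate block. Scaling each mouse to its summed OR count gave 29 and 5 members and a median of -1.09, and by construction it follows the abundant ORs such as Olfr907. Restricting the members to those with at least 95% of their words in no other gene gave 12 lower and 0 higher in the all-gene fit and 11 and 7 in the OR fit, from 26 members. The difference in the share of OR counts, -1.06 percentage points, was -1.13 to -0.95 with each mouse left out, and the difference in the share of all counts was -0.0154 to -0.0096.

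The replicate block changed the call of none of the 24 named members in either fit, and it gave 23 lower and 1 higher in the all-gene fit and 18 and 18 in the OR fit. Among the other members it changed the calls of Olfr1424, Olfr1431, Olfr1489 and Olfr1501, and no other. For single named members, 3 values changed sign. Olfr1418 in the all-gene fit, at -0.04, was 0.10 without wild-type mouse 2 and 0.12 without RTP1,2DKO mouse 2. Olfr1433 in the OR fit was -0.083 with the scaling to the total OR count. Of the other values under alternatives, 522 kept direction and side of the threshold, 23 lost the call and 4 gained it. Except where stated, the causes of these changes were not tested. Low counts limit Olfr1453 and Olfr1504 most, and shared sequence limits Olfr1475, Olfr1502 and Olfr1436.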
